A study of Mus musculus with 2 samples.

Results

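Cholangiocytes, the epithelial cells that line the bile ducts, made up 1290 of the 5580 cells kept in the single-cell library of healthy mouse liver, and of 14757 cells deposited for the series as a whole. They were selected on the UMIs (unique molecular identifiers, each marking 1 captured RNA molecule) of 4 epithelial markers. A cell entered the class with at least 5 UMIs of Epcam, Krt7, Krt19 and Cldn7 together, if this sum was more than 3 times that of the endothelial genes Clec4g, Stab2 and Kdr, and if it had at most 1 UMI of the mesothelial genes Msln and Upk3b. The class was 23.1% of the kept cells (95% Clopper-Pearson interval 22.02 to 24.2%), which covers the counting of cells only. Because the rule chose these cells on their own RNA, every difference from the other cells below is a description, given without a test.

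Cholangiocytes form a single-layered tube that receives the bile made by hepatocytes and changes it on its way to the gut, adding bicarbonate and water in response to secretin and taking back glucose and bile acids. Their identity rests on transcription factors such as Sox9 and the Onecut factors, on Notch signals during duct formation, and on a primary cilium that senses bile flow. After injury they can multiply in ductular reactions and signal to mesenchymal and immune cells.

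The study compared liver cells of healthy mice with those of mice injured with carbon tetrachloride (CCl4), a hepatotoxin, with 1 library for each condition. Both came from Col1a2CreER:Rosa26tdTomato animals on a C57BL/6 background, in which tamoxifen-activated Cre under the Col1a2 promoter switches on a red reporter, chiefly in mesenchymal cells. Per the study's methods, injured animals received CCl4 in corn oil into the peritoneum 2 times a week for 12 weeks, from 8 to 10 weeks of age, and both sexes were used. The age of the healthy mice and the number of animals in each library were not given in the sources used here. In both arms the liver was perfused with EGTA, pronase and collagenase, purified on a Nycodenz gradient and, per the methods, passed over CD45 beads to remove leukocytes, although the labels call the result whole liver cells. The shares of cell types thus reflect digestion and sorting as well as the liver. The healthy library held 6297 cells and 51122846 UMIs and the injured one 8460 cells and 97611831 UMIs, and 10 cell barcodes occurred in both. With 1 library a condition there was no replicate error, so levels are given as CPM (counts of UMIs per 1000000 UMIs of a class) and ratios of CPM with 95% intervals for counting error only. A fold of 4 was the size past which a gene is counted as higher or lower, and counts under 3 UMIs were raised to 3 for a ratio. A UMI marks a 3′ end, so CPM was not divided by gene length.

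The cholangiocytes were deep cells, with a median of 11637 UMIs (1375 to 64501), 3903.5 genes and 4.99% mitochondrial UMIs. The 4290 other kept cells had a median of 6158 UMIs. By similar rules 3330 of them were endothelial (median 6226.5 UMIs), 242 mesothelial (18273 UMIs) and 105 hepatocytes (7308 UMIs). The 4 markers summed to a median of 29 UMIs a cholangiocyte, up to 175, and the genes of the rule reached 1231 CPM for Epcam, 586 for Krt19, 469 for Cldn7 and 192 for Krt7. Krt19 and Krt7 were higher still in mesothelial cells, at 1342 and 940 CPM, and the rule set a limit on mesothelial genes. At the threshold, the 32 cells with 5 or 6 marker UMIs held 18287 CPM of Spp1 and 761.97 CPM of Sox9, and the 38 cells just outside, with 3 or 4 UMIs, held 9965 and 572 CPM. These shallow cells had median depths of 2884 and 2240 UMIs and 11.5% and 13.7% mitochondrial UMIs. A further 328 kept cells had at least 5 marker UMIs but failed on endothelial genes (109 cells) or mesothelial genes (257 cells), 38 of them on both. They stayed among the other cells, where they held 83.2% of the Epcam and 77.0% of the Spp1 UMIs, so ratios to all other cells understate the distance to cells without biliary RNA.

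The label was set beside 20 biliary identity genes outside the rule. That list was chosen with earlier results of these data known, so it describes the class and is no independent check. Of 10452 genes with at least 10 CPM on either side, 841 were at least 4-fold higher in cholangiocytes (8.05%) and 1268 at least 4-fold lower (12.1%), around a median log2 ratio of 0.02. All 19 identity genes with enough UMIs were among the higher ones, with a median log2 ratio of 3.96. Over endothelial cells the 19 ratios ran from 29.2 to 87.1 (median 69.1), and over the 3467 other cells without a single marker UMI from 9.34 to 228 (median 72.2).

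Spp1, the secreted phosphoprotein osteopontin, had at least 1 UMI in 100% of cholangiocytes, with a median of 306 and a highest value of 2314 UMIs. It stood at 26165 CPM against 360 in endothelial, 104 in mesothelial and 154 in hepatocyte cells. Clu, the extracellular chaperone clusterin, stood at 15758 CPM against 246, 1173 and 1048 CPM. Both were present in every cholangiocyte and far above each of the other classes. Sox9, the transcription factor of the duct lineage, had a median of 9 UMIs and stood at 843 CPM, against at most 16.9 CPM in the other classes. The simple-epithelial keratins Krt8 and Krt18 reached 1921 and 1859 CPM. Bicc1, an RNA-binding protein tied to cystic kidney disease, was shared, with 881 CPM in cholangiocytes and 833 CPM in mesothelial cells. Ambp, which encodes the plasma protein alpha-1-microglobulin, was at 1748 CPM here and 1753 CPM in hepatocytes. For the other 18 of the 19 genes the lower bound in cholangiocytes lay above the upper bounds of the 3 other classes.

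**Figure D1:**
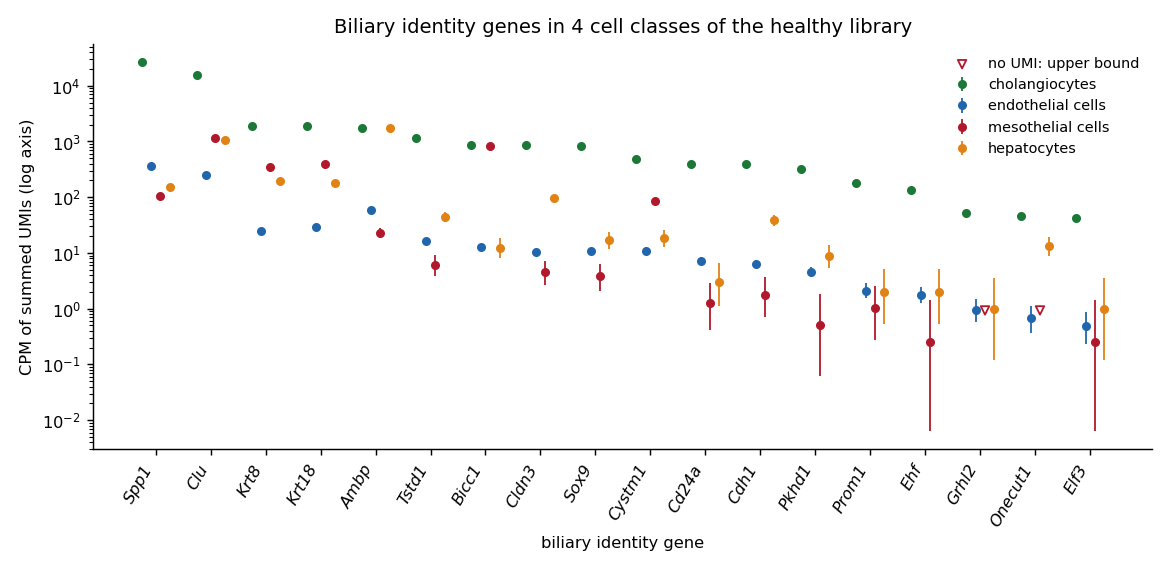
CPM of summed UMIs (log axis) of 18 biliary identity genes in the 1290 cholangiocytes, 3330 endothelial, 242 mesothelial and 105 hepatocyte cells. Points are class values, bars 95% Poisson intervals for counting error, and open triangles upper bounds for classes without a UMI. The cholangiocyte value is the highest for every gene drawn except Ambp, at 1748 CPM beside 1753 CPM in hepatocytes.

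The 30 genes with the largest ratios over all other cells ran from 37.3-fold down to 18.96-fold. The first was Msmp, a small secreted protein, at 262 CPM against 7.03 (ratio 37.3, 95% interval 32.5 to 42.9), though it had a UMI in 18.7% of cholangiocytes, beside 1.89% of endothelial cells. Mmp7, the matrix protease matrilysin, followed at 62.7 CPM and 26.9-fold, with a UMI in 28.4% of cells, beside 0.270% of endothelial cells. Next stood Ankrd1 (24.6-fold), a nuclear ankyrin repeat protein that is a target of YAP, Krt23 (23.1-fold), a keratin of simple epithelia, and Spp1 (23.0-fold). Tm4sf4, a membrane protein of the tetraspanin-like family, was at 3297 CPM and 21.8-fold, with a UMI in 99.9% of cholangiocytes. The rest held several proteins of the epithelial surface. Cldn8 (20.9-fold) and Cldn6 (20.7-fold) are claudins of tight junctions, Kcne3 (20.7-fold) and Kcnk1 (19.9-fold) are potassium channel subunits, and Spint1 (20.6-fold) is a membrane-bound inhibitor of serine proteases. Tesc (20.9-fold) binds calcium, Dcdc2a (424 CPM, 19.5-fold) is a protein of the cilium, and Sftpd (19.04-fold) is the collectin known as surfactant protein D. Msmp and Mmp7 thus headed the list although most cholangiocytes had no UMI of either, whereas Ddit4l (615 CPM), Dcdc2a, Sox9 and Tstd1 (1154 CPM) were in 95.04% to 98.6% of cells.

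At the other end, the 10 smallest ratios belonged to genes that mesothelial or endothelial cells carried. Dcn, the matrix proteoglycan decorin, was at 3.81 CPM in cholangiocytes and 6835 CPM in mesothelial cells, Myl7, a myosin light chain, at 0.828 and 2202 CPM, and Rspo1, a secreted enhancer of Wnt signals, at 0.552 and 1114 CPM. Lyve1, a hyaluronan receptor of sinusoidal endothelium, was at 1.44 CPM here and 469 CPM in endothelial cells. The rule excluded cells with mesothelial or endothelial RNA, so these values were fixed in part by the choice of cells. Against the other cells without marker UMIs alone, Myl7 and Rspo1 fell short of 4-fold, at log2 ratios of -1.08 and -1.12. That reference left out nearly all mesothelial cells, since 99.2% of them had a UMI of the marker Krt7.

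Among 20 transcription factors of the liver epithelium, 13 were at least 4-fold higher than in the other cells and 2 lower. Their median log2 ratio was 2.62, and 8.05% of all genes tested were higher and 12.1% lower. Besides Sox9, the higher ones included Onecut2 at 535 CPM, Ehf at 134 CPM, Foxa2 at 97.9 CPM, Foxa1 at 59.98 CPM, Grhl2 at 51.4 CPM and Elf3 at 41.8 CPM. Onecut2 and Onecut1 (45.8 CPM) help set the balance between hepatocytes and duct cells, and Ehf, Elf3 and Grhl2 are epithelial factors. Sox4, a partner of Sox9 in duct formation, was at 1013 CPM against 116 in endothelial and 6.46 in hepatocyte cells. Hhex, a homeobox factor of the early liver, was at 638 CPM against 115 and 120 CPM. Hepatocytes thus shared Hhex and Onecut2 (115 CPM) at a lower level but hardly any Sox4. Hnf4a, the master regulator of hepatocytes, was at 17.4 CPM here and 115 CPM in hepatocytes. The 2 lower factors were the repressors of the epithelial state Zeb1 (10.1 against 163 CPM in endothelial cells) and Zeb2 (1.66 against 291 CPM).

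Of 18 transport genes with enough UMIs, 9 were at least 4-fold higher in cholangiocytes and 1 lower, beside 8.05% and 12.1% of all genes. Their median log2 ratio was 1.93. The largest ratios were those of Slc5a1, the sodium-glucose cotransporter that takes glucose back from bile (217 CPM, 18.7-fold), and Sctr, the secretin receptor (22.4 CPM, 16.4-fold). Atp1b1, the beta subunit of the sodium pump, was at 870 CPM and 15.6-fold. Ggt1, which splits glutathione in bile, was at 17.2 CPM against 0.192 in endothelial cells, and Kcnn4, a calcium-activated potassium channel, at 72.3 against 2.59 CPM. Cftr, the chloride channel that drives bicarbonate secretion, stood at 18.3 CPM, 4.84-fold over the other cells, but mesothelial cells held it at 24.0 CPM. Both secretin response genes were sparse. Sctr had a UMI in 24.8% and Cftr in 19.6% of cholangiocytes, beside 0.240% and 0.150% of endothelial cells, and after thinning each cell to 2000 UMIs in 4.53% and 3.43% beside 0.0516% and 0.0657%. Slc4a2, the anion exchanger that exports bicarbonate, was at 43.0 CPM beside 31.8 CPM in the other cells, a ratio of 1.35 (1.23 to 1.49). Slc10a2, the apical bile acid transporter, was at 12.04 CPM and also found in hepatocytes at 18.9 CPM. The water channel Aqp1, often used to describe bile ducts, was at 24.9 CPM in cholangiocytes and 3630 CPM in endothelial cells. The basolateral bile acid carrier Slc51a had no UMI in 18105819, its partner Slc51b had 6, the bile acid receptor Gpbar1 had 1, and the sodium-proton exchanger Slc9a3 had none. By the floor of 3 counts used for ratios, a count of 0 allows up to 0.166 CPM (the upper end of the exact 95% Poisson interval is 0.204 CPM), so Slc51a and Slc9a3 were not detectable at this depth.

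Of 21 junction and polarity genes 12 were at least 4-fold higher and none at least 4-fold lower, beside 8.05% and 12.1% of all genes. Their median log2 ratio was 2.48. The claudins Cldn3 (850 CPM), Cldn6 (175 CPM), Cldn8 (71.1 CPM) and Cldn4 (31.9 CPM), the cadherin Cdh1 (388 CPM), the desmosomal Dsp (156 CPM), the tight junction protein Ocln (101 CPM) and the polarity protein Crb3 (112 CPM) belonged to the higher ones. Ezr, a linker of membrane and actin, was at 342 CPM here but 1782 CPM in mesothelial cells, also an epithelium. Tjp1, the scaffold ZO-1, was lower than in endothelial cells (70.3 against 229 CPM), and Cldn1 had 3 UMIs, whereas hepatocytes held it at 51.2 CPM. Of 15 genes of the primary cilium 4 were at least 4-fold higher and none lower (median log2 ratio 1.18). Pkhd1, which encodes fibrocystin and is mutated in congenital hepatic fibrosis, stood at 327 CPM against at most 8.95 CPM in the other classes. Cys1, which encodes cystin, was at 51.4 CPM, beside 54.2 CPM in mesothelial cells, whereas the widely used transport genes Ift20 (147 CPM) and Rab8a (60.6 CPM) differed little from the other cells (ratios 1.02 and 0.994). The polycystins Pkd1 (25.5 CPM) and Pkd2 (93.5 CPM) were not among the higher genes.

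**Figure D2:**
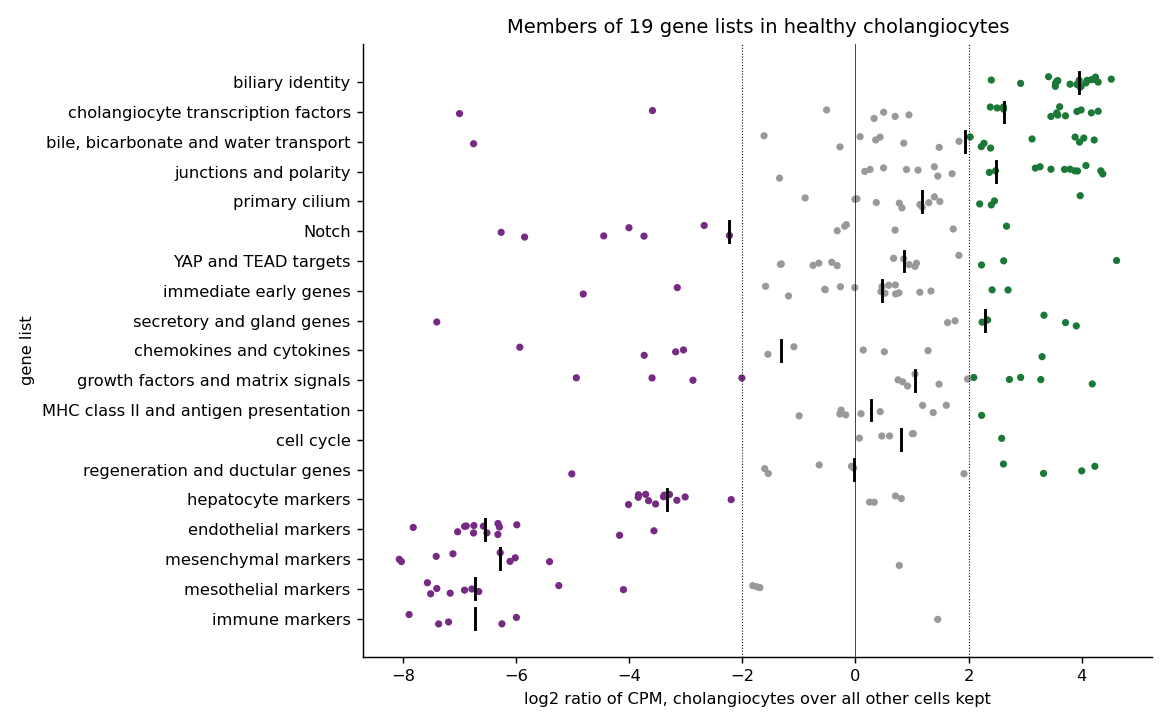
Log2 ratio of CPM in cholangiocytes over all other kept cells for the tested members of 19 gene lists. Each point is a gene, green at least 4-fold higher, purple at least 4-fold lower, and black bars mark list medians. The identity list sits between 2.40 and 4.53, all above the dotted 4-fold line, and the endothelial list wholly below the lower line.

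In the Notch pathway, which patterns bile ducts through Jag1 and Notch2, 1 of 13 genes was at least 4-fold higher and 7 were lower. The median log2 ratio was -2.23. Of all genes tested 8.05% were higher and 12.1% lower, so the count of higher Notch genes was near that of all genes. The higher gene was the receptor Notch2, at 130 CPM against 5.81 in endothelial and 68.9 in mesothelial cells. The ligand Jag1 was at 168 CPM and 3.32-fold over the other cells, short of the 4-fold line. Jag1 and Notch2 were the listed ligand and receptor with the highest levels in cholangiocytes, while each of the 7 lower members was highest in endothelial cells. Notch1 was at 20.4 CPM against 377 in endothelial cells, the ligand Dll4 at 1.33 against 142 CPM, and Notch4 at 2.10 against 47.3 CPM. Notch3 had 4 UMIs. The target gene Hes1 was at 404 CPM here and 316 CPM in endothelial cells, and Hey1, Hey2 and Heyl each had fewer than 30 UMIs.

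Targets of the YAP and TEAD factors, which respond to cell shape and stretch, had 3 of 15 members at least 4-fold higher, none lower and a median log2 ratio of 0.85. These were the matricellular proteins Cyr61 (1007 CPM, 6.16-fold) and Ctgf (343 CPM, 4.69-fold) and, with the largest ratio, Ankrd1 (441 CPM). Ankrd1 varied widely between cells, with a median of 2, a 90th percentile of 20 and a highest value of 99 UMIs. Yap1 itself was at 39.8 CPM, below the 53.9 CPM of endothelial cells. Immediate early genes, which respond within minutes to many stimuli and also to tissue digestion, were high in every non-hepatocyte class, with a summed 14702 CPM in cholangiocytes, 13320 in endothelial and 8976 in mesothelial cells. Of all genes tested 8.05% were at least 4-fold higher and 12.1% lower. Of 19 immediate early genes tested, Atf3 (860 CPM, 6.49-fold) and Myc (36.3 CPM, 5.34-fold) were at least 4-fold higher. Klf2 and Klf4, which endothelial cells held at 2051 and 488 CPM, were lower. The part of cell isolation in these levels was not tested.

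Of 8 secretory and gland genes with enough UMIs, 5 were at least 4-fold higher and 1 lower, beside 8.05% and 12.1% of all genes. Pigr, which carries immunoglobulin A into bile, was at 443 CPM here and 816 CPM in hepatocytes. The iron-binding defence protein Lcn2 was at 209 CPM, the membrane mucin Muc1 at 128 CPM, the trefoil peptide Tff2 at 57.7 CPM in 32.2% of cells (0.420% of endothelial cells), and the gland water channel Aqp5 at 25.7 CPM. The lower gene was the protease inhibitor Slpi, at 14.1 CPM against 17828 CPM in mesothelial cells. The genes Muc5b, Tff1, Gp2, Reg3b and Reg3g had no UMI in cholangiocytes, and Tff3 had 11. Sprr1a and Dmbt1, a cornified envelope protein and a mucin-like protein, had 134 and 88 UMIs but in 0.620% and 0.465% of cells.

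Growth factor genes were mixed, with 5 of 15 at least 4-fold higher and 4 lower. The higher ones were Pdgfc (195 CPM, 18.2-fold) and Pdgfa (162 CPM, beside 159 in mesothelial cells), both ligands for receptors on mesenchymal cells, Wnt4 (287 CPM, 9.70-fold), the angiogenic factor Vegfa (246 CPM, 6.60-fold) and Bmp7 (18.2 CPM). Tgfb1 was at 6.02 CPM against 257 in endothelial cells, and Tgfb2 at 114 CPM against 294 in mesothelial cells. The Hedgehog ligand Shh had no UMI and Ihh 65 UMIs. Of 10 chemokine and cytokine genes 1 was at least 4-fold higher, the membrane-bound chemokine Cx3cl1 (10.2 CPM, 9.85-fold), and 4 lower. Of all genes tested 8.05% were at least 4-fold higher and 12.1% lower. The neutrophil chemokine Cxcl1 was at 57.3 CPM and Cxcl16 at 79.6 CPM, the latter below the 311 CPM of endothelial cells, and Il6 had no UMI. Among 10 antigen presentation genes, H2-DMb1 was the one at least 4-fold higher (28.0 CPM), a count near the 8.05% of all genes. The class II chain Cd74 was at 120 CPM in 41.0% of cells and H2-Ab1 at 55.9 CPM in 35.3%, beside 1.92% and 1.11% of endothelial cells. After thinning to 2000 UMIs these shares were 15.2% and 9.17% beside 0.853% and 0.399%.

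Of 11 genes tied to regeneration and ductular reactions, 4 were at least 4-fold higher and 1 lower, beside 8.05% and 12.1% of all genes. The higher ones were Sox4, the stem cell surface marker Prom1 (179 CPM), the TWEAK receptor Tnfrsf12a (209 CPM) and the integrin chain Itgb6 (23.4 CPM). The Wnt receptor Lgr5 had 3 UMIs, the portal mesenchyme factor Foxl1 none, and Cd44, a hyaluronan receptor, 75 UMIs. Of the cell cycle genes 6 had enough UMIs, and Stmn1, a microtubule protein, was the one at least 4-fold higher (193 CPM, 6.01-fold). Cells in mitosis were counted as those with at least 5 UMIs of 8 mitotic genes. They numbered 9 cholangiocytes (0.698%, Clopper-Pearson interval 0.320 to 1.32%), beside 2 endothelial cells (0.0601%) and no mesothelial or hepatocyte cell. These counts were not thinned, and the median depths of the first pair of classes were 11637 and 6226.5 UMIs.

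Markers of other cell types were low. The 14 endothelial markers summed to 208 CPM in cholangiocytes against 18696 CPM in endothelial cells, all 14 at least 4-fold lower, and 24 cholangiocytes had 10 or more UMIs of them. The 14 mesenchymal markers summed to 22.4 CPM, with Col1a1 at 0 and 8 of 9 tested at least 4-fold lower, and the 12 mesothelial markers to 606 CPM against 48969 in mesothelial cells, 9 of them at least 4-fold lower. The leukocyte gene Ptprc, which encodes CD45, was at 0. Of 6 tested immune markers 5 were at least 4-fold lower, beside 12.1% of all genes tested. The members short of 4-fold lower were the mesothelial markers C3, Gpm6a and Ildr2, the immune marker Csf1r and the mesenchymal marker Reln, all named after their values were seen. The complement gene C3 was at 478 CPM in 90.3% of cholangiocytes, against 9866 CPM in mesothelial, 2806 in hepatocyte and 75.8 in endothelial cells, and made up most of the mesothelial sum. Gpm6a, a membrane glycoprotein, was at 78.8 CPM and Ildr2 at 8.12 CPM, beside 1752 and 188 CPM in mesothelial cells. Csf1r, the macrophage growth factor receptor, was at 46.1 CPM in 41.9% of cholangiocytes against 4.08 CPM in endothelial and 26.0 CPM in mesothelial cells, the share being 0.601% in endothelial cells and, after thinning, 8.75% in cholangiocytes and 0.235% in endothelial cells. The other macrophage genes Cd5l, Clec4f, Tyrobp and Lyz2 had 4, 2, 5 and 8 UMIs in the whole class. Reln, a secreted glycoprotein listed here as a stellate cell marker, was at 12.9 CPM against 3.70 in endothelial cells.

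Hepatocyte markers fell into separate sets. Of 16 genes, 12 were at least 4-fold lower than in all other cells, which include the hepatocytes, beside 12.1% of all genes. None was at least 4-fold higher in cholangiocytes. Set against endothelial cells instead, 4 genes stood out. The transthyretin gene Ttr was 8.73-fold, the albumin gene Alb 6.96-fold, the transferrin gene Trf 6.39-fold and the fetuin gene Ahsg 5.78-fold over the endothelial level. The other 12, among them the apolipoproteins Apoa1 and Apoc3, the urea cycle genes Cps1 and Arg1 and the cytochromes Cyp2e1 and Cyp3a11, were at 0.375 to 0.978 times the endothelial level. As a share of the hepatocyte level, the 4 genes reached 11.5% to 15.95% and the 12 genes 0.559% to 1.93%. Alb was at 5600 CPM in cholangiocytes, 804 in endothelial and 39141 in hepatocyte cells, with a median of 60 and a highest value of 551 UMIs a cholangiocyte. Within the same cells the ratio to the endothelial level thus ran from 0.375 for Arg1 and Pck1 to 8.73 for Ttr. The part of free RNA in these values was not tested. Within the class, 4 cells had at least 5% UMIs of hepatocyte genes, and without them the counts of higher and lower genes were 842 and 1270.

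**Figure D3:**
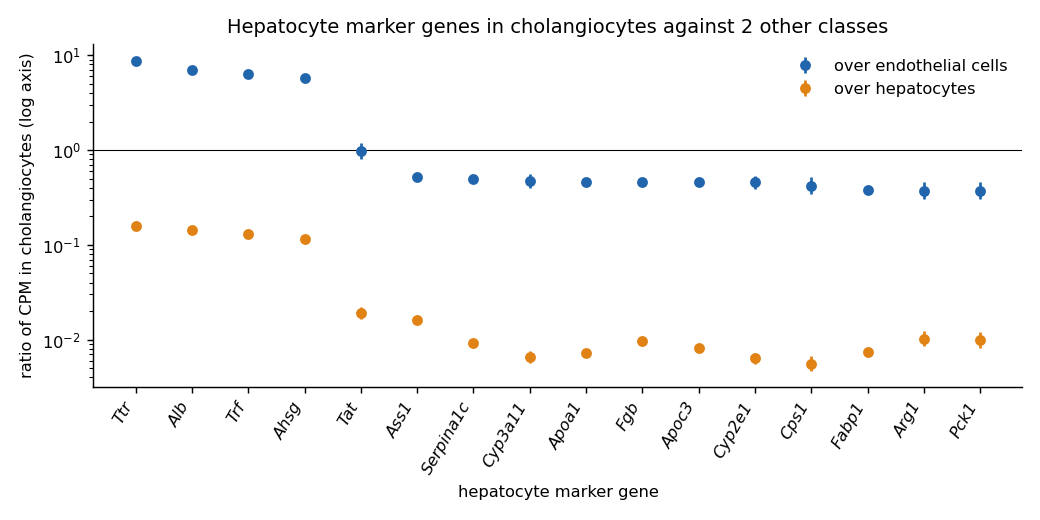
Ratio of CPM in cholangiocytes over endothelial cells (blue) and over hepatocytes (orange) for the 16 hepatocyte marker genes, on a log axis, with bars for 95% counting intervals. Ttr, Alb, Trf and Ahsg lie at 5.78 to 8.73 over endothelial cells, above the line at 1, and the other 12 genes at 0.375 to 0.978.

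Variation inside the class was described by the excess squared coefficient of variation, the spread of a gene between cells beyond what Poisson counting at each cell's depth gives, divided by its squared mean. Of 8046 genes tested 584 had an excess of at least 1 (7.26%), and the median was 0.0559. None of the 19 identity genes was among them, and their median excess was 0.113. The lists with the largest shares were hepatocyte markers (8 of 10 tested), endothelial markers (3 of 4), chemokines and cytokines (3 of 5), immediate early genes (9 of 19) and antigen presentation genes (4 of 9). Without the 24 cells that had 10 or more endothelial UMIs, 564 genes passed, 526 of them among the 584.

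The gene with the largest excess was Cxcl10, an interferon-induced chemokine (311). It had no UMI in 1182 cells and up to 188 UMIs in 1 cell, and the 10 highest cells held 72.9% of its UMIs. Ifit3, an interferon-induced antiviral gene, followed with an excess of 187, then Msmp with 71.9. Msmp was concentrated in few cells, with 0 UMIs in 1049 cells, 1 UMI in 108, 2 to 19 UMIs in 97 and at least 20 in 36 cells, which held 85.8% of its UMIs, up to 739 in 1 cell. Fabp4 (41.3) and Ehd3 (37.7) came next, with a UMI in 12.02% and 14.5% of cholangiocytes, and both were far higher in endothelial cells, at 1615 and 2832 CPM. Serpina6, which encodes the corticosteroid carrier of plasma, had a UMI in 16.4% of cholangiocytes and up to 114 UMIs. It stood at 61.1 CPM beside 128 CPM in hepatocytes and 2.45 CPM in endothelial cells. S100a6, a calcium-binding protein, had an excess of 13.5, Tff2 of 11.1 and the interferon-induced GTPase Iigp1 of 12.9.

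**Figure D4:**
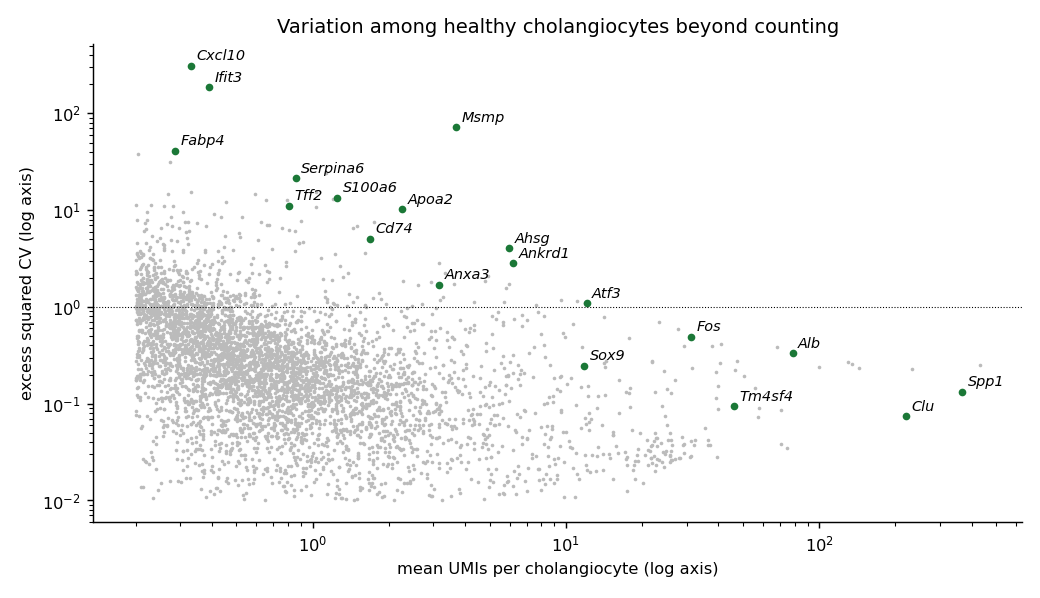
Mean UMIs per cholangiocyte and excess squared coefficient of variation, both on log axes, for 4763 genes above 0.01, with 3283 genes at or below it not drawn and the dotted line at 1. Cxcl10, Ifit3 and Msmp lie highest, while Spp1, Clu, Tm4sf4 and Sox9 lie below the line.

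To see which variable genes went together, the UMIs of each cell were split at random into 2 parts, cells were grouped on the first part by Leiden clustering, and the groups were described in the second. The 5 groups held 443, 355, 319, 110 and 63 cells, numbered from the largest. They are described by their leading genes and given no cell type name, since those genes chose them in part. All 5 kept the duct program, with Spp1 at 0.922 to 1.14 and Sox9 at 0.928 to 1.04 times the level of the other groups.

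Groups 1 and 2, with 34.3% and 27.5% of the class, differed in opposite directions for several of the leading genes. Group 1 was led by Msmp (3.14-fold over the other groups), Ahsg (2.15-fold), the kinase Sgk1 (2.02-fold) and Trf (1.596-fold), and was lowest for the annexin Anxa3 (0.2203-fold), S100a6 (0.249-fold) and Cxcl16 (0.332-fold). The Msmp value rests on few cells, since 17 of the 36 cells with at least 20 UMIs lay in group 1, while 22.8% of its cells had a UMI beside 22.2% in group 5. Group 2 had the reverse, with S100a6 at 2.42, Anxa3 at 2.33, Cldn4 at 2.14, Tff2 at 2.07 and Klf5, an epithelial transcription factor, at 1.64, and Ahsg at 0.281. As a description of single cells by these same genes, 7.17% of the 265 cells with at least 8 UMIs of Ahsg had 8 or more UMIs of Anxa3 and S100a6, beside 19.03% of the 536 cells with 1 to 7 UMIs and 18.4% of the 489 cells without. Median depths were 10903 UMIs in group 1 and 13390 UMIs in group 2. In the group with the lowest Ahsg level among those of at least 100 cells, Anxa3 was above the other groups under each of the 5 other groupings run (1.34 to 3.35-fold), whereas S100a6 was at 1.03-fold with 20 principal components and 1.53 to 5.73-fold in the other 4.

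Group 3 was set apart by low immediate early genes, which summed to 7327 CPM against 15102 to 17349 CPM in the other groups. Atf3 was at 0.189, Nr4a1 at 0.175, Fos at 0.390 and Cyr61 at 0.413 times the level of the other groups. It was led by Fabp4 (8.41-fold, though 14.1% of its cells had a UMI beside 9.09% to 12.7% elsewhere and 10 cells held 58.3% of the UMIs in the class), the histone genes Hist4h4 (5.11-fold) and Hist1h4d (3.98-fold) and the hepatocyte apolipoprotein Apoa2 (2.29-fold). It also had the highest mitochondrial share (5.88% against 4.68% to 4.87%), and 4.08% of its cells had 10 or more endothelial UMIs against 0% to 2.54% elsewhere. The part of cell state at capture in these levels was not tested. Low Atf3 and high Fabp4 parted in most other groupings. At resolution 0.3 or 1, with 20 principal components or without immediate early genes, the group highest in Fabp4 had Atf3 at 1.002 to 1.29-fold. The group lowest in Atf3 there had Fabp4 at 0.464 to 0.641-fold. With another random split both stayed in the same group (Atf3 0.204, Fabp4 6.26-fold). The Fabp4 group held 14 cells with 20 principal components and 16 without immediate early genes. Without group 3 the class had 849 higher and 1282 lower genes against all other cells.

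Group 4 was led by mitotic genes, Ube2c (120-fold) and Mki67 (80.6-fold), which rest on few cells, since 6 of the 9 mitotic cholangiocytes lay among its 110 cells. Its other leading genes were spread wider. Rgs5, a regulator of G protein signals, was at 4.33-fold, the lymphotoxin gene Ltb at 3.75-fold, Ahsg at 2.95-fold, and Cd74 and H2-Ab1 at 2.61 and 2.65-fold, with a UMI of Cd74 in 70.0% of its cells against 34.3% to 44.4% elsewhere. Msmp (0.136-fold), the proteoglycan Bgn (0.177-fold) and Pigr (0.437-fold) were low. This group was not separate at a coarser resolution or with another random split, where most of its cells fell in with group 1 (70.0% and 70.9%). With 20 principal components its best matched group, of 278 cells, held 45.5% of its cells. Without immediate early genes 88.2% of them lay in a group of 235 cells and made up 41.3% of it. That group was led by Serpina10 and Ahsg, with Ube2c at 55.2-fold. At resolution 1, 98.2% lay in a group of 175 cells led by Ube2c and made up 61.7% of it.

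Group 5, with 63 cells, was led by interferon-induced genes. Ifit3b stood at 100-fold, Rsad2 at 64.6-fold, Ifit3 at 59.8-fold, Cxcl10 at 37.4-fold, Iigp1 at 12.8-fold and Ifit1 at 12.5-fold over the other groups. Group 5 held 74.5% of all Ifit3 and 64.02% of all Cxcl10 UMIs in the class. The folds of Ifit3b, Rsad2, Ifit3 and Cxcl10 rest on few cells, since 4, 4, 7 and 5 cholangiocytes had at least 5 UMIs. The 10 highest cells held 82.1%, 74.9%, 68.3% and 72.9% of their UMIs in the class. Cells in group 5 differed, with Iigp1 in 93.7% of them but Cxcl10 in 12.7%, Rsad2 in 23.8%, Ifit3b in 25.4% and Ifit3 in 49.2%. Outside it Iigp1 was in 33.0% to 47.3% of cells. Genes of the duct list were near the other groups, and Serpina6 (0.154-fold) and Ahsg (0.426-fold) were low. A group with Ifit3 among its leading genes (15.7 to 82.7-fold) came up in each of the 5 other groupings, with 46 to 212 cells. It held 73.0% to 98.4% of these 63 cells. The shared cells made up 100% of that group at resolution 0.3 but 29.2% of its 212 cells without immediate early genes.

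**Figure D5:**
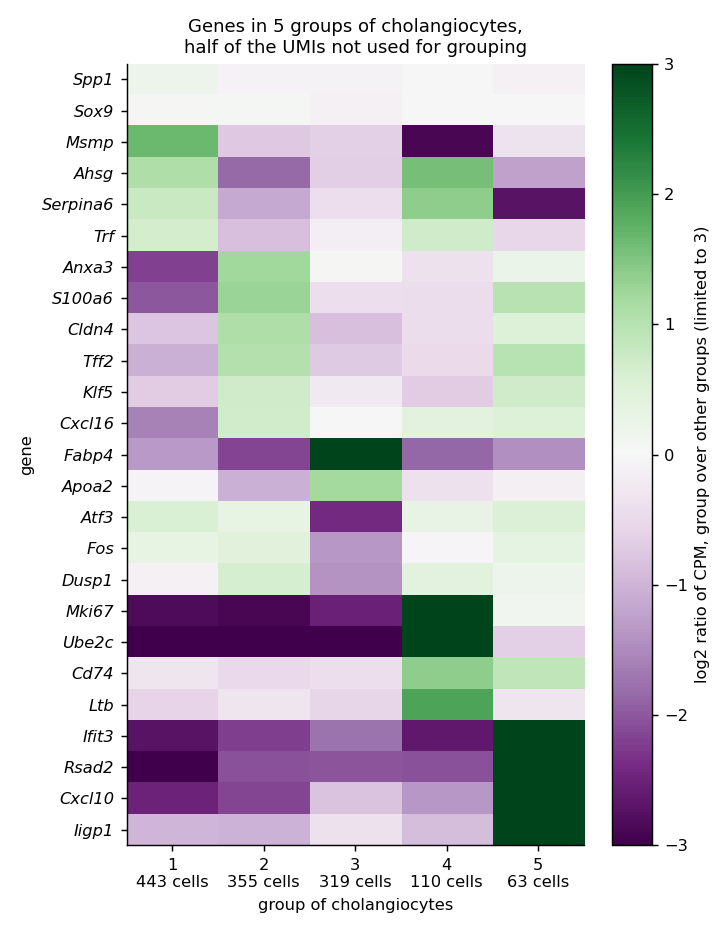
Log2 ratio of CPM, each group over the other groups, for 25 genes in 5 groups of cholangiocytes, from the UMIs not used for grouping, with colours limited to 3 in either direction. Spp1 and Sox9 are pale across all groups, Ahsg and Anxa3 are opposite in groups 1 and 2, and Ifit3, Rsad2 and Cxcl10 are dark green in group 5.

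Promoters of interferon-induced genes often carry an interferon-stimulated response element, whose core can be written GAAANNGAA, N being any base. The RefSeq promoter windows of GRCm38.p6 run from 250 bases before to 50 bases after a start. These 9 letters, on either strand, occurred in 8.56% of the 32851 RefSeq promoter windows and 9.76% of genes. Of the 10 leading genes of group 5, 7 were matched in the promoter table and 6 of these held it (Cxcl10, Gbp3, Ifit1, Ifit3, Ifit3b and Rsad2). The stretches of 100 bases below, of GRCm38.p6 on the gene's strand, are read 5′ to 3′ and show 4 of them with matches in capitals, which in Ifit1 overlap each other. A match describes the letters only and is no evidence of binding.
Ifit3 (chr19:34583381-34583480, plus strand, 2 of its 3 matches shown, the nearest of the 3 lying 102 and the farthest 155 bases before the start): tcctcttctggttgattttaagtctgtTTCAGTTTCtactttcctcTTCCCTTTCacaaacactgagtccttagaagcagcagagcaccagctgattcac
Ifit1 (chr19:34640759-34640858, plus strand, matches 84 to 109 bases before the start): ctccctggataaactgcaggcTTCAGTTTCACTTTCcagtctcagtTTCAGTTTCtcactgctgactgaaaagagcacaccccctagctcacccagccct
Rsad2 (chr12:26456518-26456617, minus strand, match 119 bases before the start): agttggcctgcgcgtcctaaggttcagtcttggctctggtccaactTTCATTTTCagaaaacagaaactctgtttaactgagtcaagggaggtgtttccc
Cxcl10 (chr5:92349040-92349139, minus strand, match 213 bases before the start): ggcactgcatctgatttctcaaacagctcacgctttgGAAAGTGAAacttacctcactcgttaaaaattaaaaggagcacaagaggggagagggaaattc
The letters run as the reverse complement in Ifit3, Ifit1 and Rsad2 and in the written direction in Cxcl10.

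In the injured library few cells met the same rule, 49 of 7130 kept (0.687%, Clopper-Pearson interval 0.509 to 0.908%). Injury, library and the differing software versions of the files cannot be told apart, and the share also depends on how many other cells were captured. Over these cells 723 of 9938 genes were at least 4-fold higher than in healthy cholangiocytes (7.28%) and 611 at least 4-fold lower (6.15%), around a median log2 ratio of -0.42, and 5 of 19 identity genes were lower. The cells were of differing kinds. In 20 of them there was at most 1 UMI of Epcam and none of Spp1, with 16621 CPM of the acute phase gene Saa3 and 7769 CPM of Dcn, and 15 of 16 identity genes tested were at least 4-fold lower than in 8 healthy cholangiocytes that also had at most 1 UMI of Epcam. The groups were not alike in depth, with medians of 26819.5 and 3397.5 UMIs, so that Epcam stood at 1.81 CPM in the injured and 272 CPM in the healthy cells. The 20 cells go against the label.

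The other 29 injured cells, with at least 2 UMIs of Epcam and a median of 8584 UMIs, were set against the 1282 healthy cholangiocytes with as many (median 11670 UMIs). Here 393 of 9815 genes were at least 4-fold higher (4%) and 68 lower (0.693%), around a median log2 ratio of -0.18. None of the 19 identity genes passed 4-fold in either direction. Spp1 was at 0.803, Clu at 0.873, Sox9 at 0.782 and Krt18 at 1.03 times the healthy level. The lowest in that list were Grhl2 at 0.349, from 5 UMIs, and Pkhd1 at 0.515 (interval 0.378 to 0.686). Onecut1 was the highest in that list, at 3.75 times. Tm4sf4, outside that list, was at 0.492 (0.447 to 0.539). Among signals, the chemokines Cxcl1 (4.50-fold), Cxcl12 (19.9-fold) and Ccl2 (43.2-fold) were higher, and 4 of 10 genes in that list passed 4-fold. The cell cycle inhibitor Cdkn1a was 6.20-fold higher, the heat shock genes Hspa1a and Hspa1b 20.1 and 13.8-fold, and Dmbt1 114-fold (144 UMIs). Other cells of the injured library differed by class in these genes. Hspa1a was at 447 CPM in the 29 cells, 442 CPM in mesothelial cells and 642 CPM in cells with at least 2 UMIs of Ptprc. It was lower in endothelial (181 CPM) and hepatocyte cells (9.63 CPM). Cxcl1 was at 257 CPM in the 29 cells, beside 363, 74.5, 107 and 19.3 CPM in the same classes in that order. Levels of Cxcl12, Ccl2, Cdkn1a, Hspa1b and Dmbt1 in other injured cells were not compared. Cd74 and H2-Ab1 were lower, at 0.179 (0.0655 to 0.390) and 0.193 times (0.0398 to 0.566), from 6 and 3 UMIs.

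All 14 mesenchymal markers were at least 4-fold higher in the 29 injured cells, summing to 3913 CPM against 22.4 CPM, with Dcn 403-fold, Col3a1 1325-fold and Col1a1, at 0 in healthy cholangiocytes, at least 2464-fold. These UMIs were unevenly spread, as 3 of the 29 cells held 90.8% of them and the median cell had 0.0407% of its UMIs in this list. In other injured cells the same genes summed to 10747 CPM in 768 endothelial cells and 8558 CPM in 1199 mesothelial cells. They summed to 4567 CPM in 377 cells with at least 2 UMIs of Ptprc and to 905 CPM in 32 hepatocytes. The part of free or shared RNA in the injured values was not tested.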

How the data were processed

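Droplet single-cell RNA libraries (10x Genomics 3′) of healthy and CCl4-injured mouse liver were analysed, 1 library each. The authors deposited filtered matrices of UMI counts per gene and cell, not normalised, made with Cell Ranger 3.1.0 (healthy) and 6.0.1 (injured) per the file headers. The methods name the human build GRCh38, the submitters' processing notes list GRCh38 and mm10, and the gene identifiers in both files are those of mouse. The methods describe an in-house pipeline with fastp for trimming and fastp and featureCounts named for alignment and counting, whereas the file headers name Cell Ranger, and which made the matrices could not be settled here.

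Cells with at least 1000 UMIs and at most 30% mitochondrial UMIs were kept. This left 5580 of 6297 healthy cells (419 removed by the first limit and 298 by the second) and 7130 of 8460 injured cells. UMIs were summed over the cells of a class and given as CPM with exact Poisson intervals, ratios with exact conditional binomial intervals and shares of cells with Clopper-Pearson intervals, all at 95% and for counting error only. A gene was tested with at least 10 CPM on either side. Endothelial, mesothelial and hepatocyte cells, taken from the remaining cells by marker UMIs, served for comparison. Shares of cells with a UMI are unthinned unless given as thinned. For the thinned shares, cells were reduced to 2000 UMIs, which left out 6 cholangiocytes and 305 endothelial cells. No doublet caller was used in the main results, and Scrublet was an alternative. Excess variation was computed for genes with a mean of at least 0.2 UMIs a cell and a UMI in at least 5% of cells. Groups inside the class used 1000 variable genes, 10 principal components, 15 neighbours and Leiden resolution 0.5.

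The genes named were the 30 with the largest ratio at 50 CPM or more and in at least 10% of cells, the 10 with the smallest ratio, the 25 with the largest excess variation, 10 per direction for each group and for the injured library, and members of 19 lists. The members of the class, the lists and the rules were chosen with earlier results of these data known. With 1 library a condition no test between conditions was possible. The computations were tested on simulated data. No deposited column of per-sample values was left unused. Software was Python 3.11.15, NumPy 2.4.6, SciPy 1.17.1, pandas 2.3.3, scanpy 1.11.5, matplotlib 3.10.9, R 4.3.3 and edgeR 4.0.16, the last for scaling factors in an alternative.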

Additional observations from a re-analysis of the deposited data

How the results depend on the processing

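No paired analysis was possible because each condition had 1 library and the result comes from no test. The share of cholangiocytes moved from 23.1% to 21.88% with at least 10 marker UMIs, 21.95% with at least 500 UMIs a cell, 25.5% with at least 2000 UMIs a cell and 25.4% with at most 10% mitochondrial UMIs. Without a minimum level beyond 3 UMIs, 1729 genes were at least 4-fold higher and 2302 lower, as many more genes were then tested. Under the other alternatives the counts ran from 811 (TMM factors) to 1147 (other cells without marker UMIs only) higher and from 1154 to 1303 lower, and all 19 identity genes stayed at least 4-fold higher in each of 14 settings. Scaling to totals without the 50 most abundant genes moved the median log2 ratio of all genes by 0.11. Thinned to 2000 UMIs a cell, 35 genes were variable out of 1634 tested there, 34 of them among the 584. At resolution 1 there were 10 groups. In the injured library, 329 genes were lower with at least 10 marker UMIs and 332 with every cell weighing the same. With at least 2 Epcam UMIs, 393 genes were higher and 68 lower. The settings with 2 Epcam UMIs, without group 3 and without cells of 10 endothelial UMIs, and the counts of lower genes in the injured library, were added after seeing the data. Scrublet removed 249 cells, 9 of them cholangiocytes, and no direction of a named gene reversed. Of the 40 genes named by ratio, 30 moved by more than their counting interval under Scrublet, with the higher ones at log2 4.94 to 5.82, and 37 against other cells without marker UMIs, with the higher ones at 6.17 to 7.80 and the lower ones at -8.15 to -1.08. The causes of these moves were not tested.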
